A study of Mus musculus with 19 samples.

Results

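The guanylate-binding protein (Gbp) genes were followed in type 1 conventional dendritic cells (DC1) of mice with and without Batf3. The family members considered were Gbp2, Gbp2b, Gbp3, Gbp5, Gbp6, Gbp7, Gbp8 and Gbp9, each measured by its brightest probe set among those annotated to that symbol alone. By this rule 7 of the 8 genes were measured in spleen, out of 22180 genes in that table, and 6 of the 8 in skin-draining lymph nodes, out of 19938. Gbp2 had no probe set of its own in either table, because its probe set is also annotated to Gbp2b, and Gbp6 had none in the lymph node table. Gbp2b and Gbp3 were higher without Batf3 in spleen or resident DC1, and the family was chosen by measured values of those comparisons, which are given here as a description without a test.

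The study hybridised RNA of sorted DC1 to 19 single-colour Affymetrix arrays that fall into 7 groups, all on the C57Bl/6j background. From spleen of female mice came Batf3-/- Irf8VENUS+ DC1 (3 arrays), WT Irf8VENUS+ DC1 (3 arrays) and WT Irf8VENUS- DC1 (2 arrays); the third array of each Irf8VENUS+ group was sorted on CD24 alone and the others on CD24 and XCR1. From inguinal, cervical and brachial lymph nodes, where every group was Irf8VENUS+, came migratory Batf3-/- (3 arrays), migratory WT (2 arrays), resident Batf3-/- (3 arrays) and resident WT DC1 (3 arrays), with migratory cells gated as MHCIIhi CD11cint and resident cells as MHCIIint CD11chi. Irf8VENUS is a fluorescent reporter for Irf8, the transcription factor that DC1 need, and the labels do not say whether Irf8VENUS- cells came from mice without the reporter. Batf3 is the AP-1 family factor on which DC1 development depends, so the Batf3-/- groups are the cells that still met the DC1 gate in animals lacking it. The sort text for spleen names CD172a-positive cells and that for lymph node CD172-negative cells. Age was not given in the labels, and nothing in them says that replicate arrays came from separate mice, so that p-values measure only the spread between these arrays.

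Guanylate-binding proteins are large GTPases whose genes are switched on strongly by interferon-gamma and also by type I interferons. They coat vacuoles that hold pathogens and the surface of bacteria in the cytosol, and they help bacterial lipopolysaccharide and DNA to reach the caspase-11 and AIM2 inflammasomes. Some, among them Gbp2, Gbp2b and Gbp5, carry a lipid anchor added at a carboxy-terminal CaaX sequence. In dendritic cells, IRF8 binds interferon-stimulated response elements (ISRE) and, with PU.1, combined ETS and IRF elements (EICE), while BATF3 binds AP-1 elements and composite AP-1 and IRF elements (AICE) together with IRF4 or IRF8. The mouse genes lie in a pair of clusters. In GRCm38.p6, Gbp5 (chr3:142496934-142522344), Gbp7 (chr3:142530336-142550151), Gbp3 (chr3:142560016-142573213), Gbp2b (chr3:142594816-142619179) and Gbp2 (chr3:142620663-142638008) share 141 kb of chromosome 3, and Gbp8 (chr5:105012513-105053609), Gbp9 (chr5:105076464-105110357) and Gbp6 (chr5:105270702-105295871) share 283 kb of chromosome 5.

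Promoter windows from RefSeq, build GRCm38.p6, running from 250 bases before to 50 bases after a transcript start, were at hand for 5 members (6 windows): Gbp2, Gbp2b, Gbp3, Gbp5 and Gbp7. Those of the 4 measured chromosome 3 genes are printed because the genes sit side by side and their levels differ by group. All lie on the + strand and read 5′ to 3′, at chr3:142594597-142594896 (Gbp2b), chr3:142559794-142560093 (Gbp3, the upstream one of its windows), chr3:142496684-142496983 (Gbp5) and chr3:142530086-142530385 (Gbp7), and capitals mark every motif match described after them.
Gbp2b promoter: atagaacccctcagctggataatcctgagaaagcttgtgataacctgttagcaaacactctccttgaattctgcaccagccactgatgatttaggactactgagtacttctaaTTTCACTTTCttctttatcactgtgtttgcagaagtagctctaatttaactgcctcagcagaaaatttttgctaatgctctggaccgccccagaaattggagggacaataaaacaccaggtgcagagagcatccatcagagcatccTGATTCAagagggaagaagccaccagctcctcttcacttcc
Gbp3 promoter: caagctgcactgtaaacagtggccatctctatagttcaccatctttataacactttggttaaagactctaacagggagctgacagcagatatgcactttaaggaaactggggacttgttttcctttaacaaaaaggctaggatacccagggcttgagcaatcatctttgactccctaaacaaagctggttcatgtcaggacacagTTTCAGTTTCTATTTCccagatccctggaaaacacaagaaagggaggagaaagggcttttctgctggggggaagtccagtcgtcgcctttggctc
Gbp5 promoter: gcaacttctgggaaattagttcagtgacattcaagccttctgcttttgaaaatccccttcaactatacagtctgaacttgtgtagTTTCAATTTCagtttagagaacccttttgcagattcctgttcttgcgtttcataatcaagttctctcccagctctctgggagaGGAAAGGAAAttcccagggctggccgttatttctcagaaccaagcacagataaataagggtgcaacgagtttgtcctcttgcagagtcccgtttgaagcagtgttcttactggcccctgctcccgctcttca
Gbp7 promoter: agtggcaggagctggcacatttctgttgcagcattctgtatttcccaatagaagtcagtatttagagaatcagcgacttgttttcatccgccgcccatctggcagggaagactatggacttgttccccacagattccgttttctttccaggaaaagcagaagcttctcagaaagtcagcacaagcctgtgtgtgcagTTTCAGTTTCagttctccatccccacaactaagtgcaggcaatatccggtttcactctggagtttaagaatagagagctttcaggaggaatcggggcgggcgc
Each motif was searched on both strands. The ISRE core, searched as GAAA, any 2 bases and GAAA again, and read as TTTC, 2 bases and TTTC on the other strand, was found in a window of each of the 5 genes, against 3.44% of all 32851 promoter windows of this length. It lay at -137 to -128 in Gbp2b, at -59 to -50 in Gbp2, at -165 to -156 in Gbp5 and at -53 to -44 in Gbp7, counted from the transcript start. In Gbp3, 2 matches overlapped, at -45 to -36 and -39 to -30. The AP-1 element TGANTCA was present at -102 to -96 in Gbp2 and at 10 to 16 bases after the start in Gbp2b, and in 7.81% of all windows. One EICE, searched as GGAA, any 2 bases and GAAA, lay at -82 to -73 in Gbp5, with 2.72% of all windows holding this motif. Neither form of the AICE searched, TTTC and TGANTCA with any 4 bases between them (0.119% of all windows) or GAAA joined to TGANTCA (0.125%), was among the letters of the member windows. A match is a description of the letters and not a binding site or a cause.

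**Figure D1:**
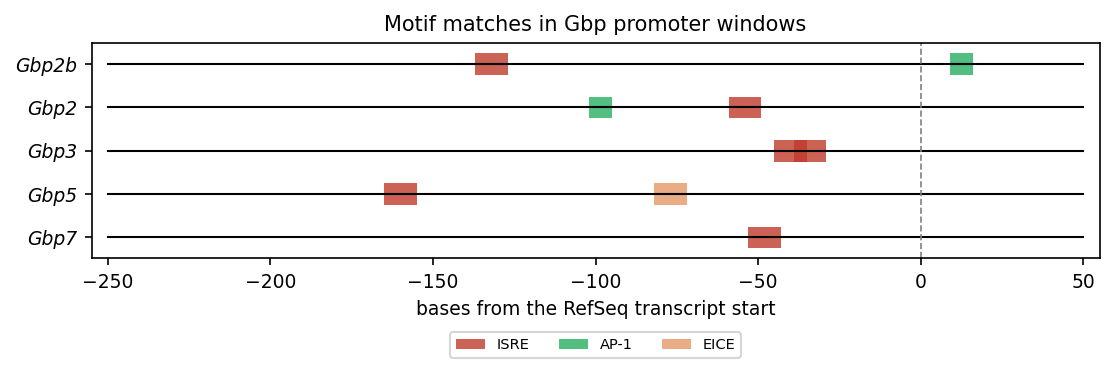
Motif matches in the first RefSeq promoter window of 5 Gbp genes on chromosome 3, against bases from the transcript start (0); coloured boxes are ISRE, AP-1 and EICE matches on either strand. Every gene has an ISRE match before its start, and the overlapping pair of Gbp3 appears as 1 longer box.

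Batf3 itself checked the labels. In spleen its log2 intensity was 6.35, 5.29 and 7.08 in Batf3-/- Irf8VENUS+ arrays, 9.64, 9.73 and 10.41 in WT Irf8VENUS+ arrays and 9.69 and 9.42 in WT Irf8VENUS- arrays. In lymph node it was 6.02, 5.87 and 6.17 in migratory Batf3-/-, 9.15 and 9.23 in migratory WT, 5.96, 5.76 and 5.50 in resident Batf3-/- and 8.15, 8.62 and 8.37 in resident WT arrays. No array went against its genotype. Of a list of 10 DC1 genes (Xcr1, Clec9a, Tlr3, Cadm1, Itgae, Irf8, Batf3, Naaa, Wdfy4, Rab7b), 9 were measured in spleen and 10 in lymph node, and all of these passed the filter on dim genes. Their summed intensity was 10300 to 12400 in spleen Batf3-/- Irf8VENUS+, 14600 to 17300 in spleen WT Irf8VENUS+ and 13400 to 14400 in spleen WT Irf8VENUS- arrays. In migratory DC1 the sum was 3690 to 6140 in Batf3-/- and 3050 to 4160 in WT arrays, against 14200 to 15500 in resident Batf3-/- and 19900 to 23000 in resident WT arrays. Irf8 made up most of the migratory Batf3-/- sum: without it the other 9 genes summed to 717 to 849 in migratory Batf3-/- and 1640 to 2160 in migratory WT arrays, and to 8870 to 9630 in resident Batf3-/- and 14500 to 16300 in resident WT arrays. Between genotypes in migratory cells Irf8 was called higher and 5 of the 10 genes were called lower (Batf3, Xcr1, Cadm1, Tlr3 and Clec9a), with a list median of -0.73. Of 7 natural killer cell markers, Ncr1, Klrb1c, Gzma, Gzmb and Eomes failed the filter in both tables, whereas Prf1 passed in both, with group means of 5.30 to 5.47 in spleen and 4.70 to 4.84 in lymph node. Ifng, the gene of interferon-gamma, averaged between 4.44 and 4.86 in all 7 groups and passed in lymph node only, near or under the filter levels of 5.04 in spleen and 4.82 in lymph node. The 2 tables come from different array types and were compared only within a table. In bulk samples such as these, fewer expressing cells and less RNA per cell cannot be told apart, and with no background measure per probe set a dim gene cannot be told from an absent one.

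In spleen, Gbp2b was the member with the widest gap between genotypes. Its log2 intensity was 7.51, 7.18 and 8.77 in Batf3-/- Irf8VENUS+ arrays, 5.46, 4.80 and 5.41 in WT Irf8VENUS+ arrays and 5.14 and 4.92 in WT Irf8VENUS- arrays. The Batf3-/- arrays all lay above both WT groups, and the WT groups overlapped each other. Relative to WT Irf8VENUS+ the difference was 2.60 ± 0.28 on the log2 scale (SE), or 6.05-fold, and relative to WT Irf8VENUS- it was 2.51 ± 0.32. Within the sort gates it was 3.36 for the CD24 pair and 2.22 for the CD24 and XCR1 arrays. Gbp2b encodes the protein formerly called GBP1 in mouse.

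Gbp3, another chromosome 3 member, was dim in spleen. It measured 4.35, 5.49 and 5.84 in Batf3-/- Irf8VENUS+ arrays, 4.43, 4.49 and 4.66 in WT Irf8VENUS+ arrays and 3.99 and 4.14 in WT Irf8VENUS- arrays. Its first Batf3-/- array fell under all 3 WT Irf8VENUS+ arrays, so those groups overlapped, whereas all Batf3-/- arrays exceeded the WT Irf8VENUS- pair. The differences were 0.70 ± 0.29 against WT Irf8VENUS+ and 0.97 ± 0.34 against WT Irf8VENUS-. Gbp3 passed the filter in spleen through 2 Batf3-/- arrays alone. Without Batf3-/- replicate 1, the difference from WT Irf8VENUS+ was 1.09 and that from WT Irf8VENUS- 1.47, while the first of these was 0.44 without Batf3-/- replicate 2 and 0.46 without replicate 3 of either genotype.

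Gbp5, which has been linked to inflammasome assembly, measured 6.87, 7.36 and 6.95 in Batf3-/- Irf8VENUS+ arrays, 5.49, 6.32 and 5.80 in WT Irf8VENUS+ arrays and 6.18 and 5.96 in WT Irf8VENUS- arrays. All Batf3-/- arrays lay above all WT arrays. Gbp8, from the chromosome 5 cluster, measured 8.31, 9.22 and 9.29 in Batf3-/- Irf8VENUS+, 6.21, 8.10 and 7.79 in WT Irf8VENUS+ and 7.65 and 7.45 in WT Irf8VENUS- arrays. The Batf3-/- group again stood apart, by a narrow 8.31 against 8.10, with a low first WT Irf8VENUS+ array. Relative to WT Irf8VENUS+, Gbp5 differed by 1.19 ± 0.24 and Gbp8 by 1.57 ± 0.45, and without that first array Gbp8 differed by 1.02.

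Gbp9 behaved differently from its neighbour Gbp8 in one respect. It measured 8.08, 8.12 and 7.96 in Batf3-/- Irf8VENUS+ arrays, 7.17, 7.60 and 7.22 in WT Irf8VENUS+ arrays and 8.07 and 7.90 in WT Irf8VENUS- arrays. The Batf3-/- arrays exceeded the WT Irf8VENUS+ arrays but overlapped the WT Irf8VENUS- arrays, and the differences were 0.72 ± 0.17 and 0.12 ± 0.20. Gbp6 ranged from 3.38 to 3.71 in Batf3-/- Irf8VENUS+, from 3.34 to 3.94 in WT Irf8VENUS+ and from 3.38 to 3.50 in WT Irf8VENUS- arrays, and Gbp7 ranged from 3.60 to 3.83 in Batf3-/- Irf8VENUS+, from 3.37 to 4.18 in WT Irf8VENUS+ and from 3.53 to 3.66 in WT Irf8VENUS- arrays. Both stayed under the filter level on all 8 arrays.

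Of the 7 members measured in spleen, 5 passed the filter, and 4 of these had all Batf3-/- Irf8VENUS+ arrays above all WT Irf8VENUS+ arrays; of all 12875 genes tested 6.15% did, and 0.435% were called higher at an adjusted p under 0.05. Against WT Irf8VENUS- also 4 did, where the share of all genes was 14.4%. These comparisons chose the family, and nothing is read from the counts. Over the 7 members the median difference in group means was 0.72 against WT Irf8VENUS+ and 0.99 against WT Irf8VENUS-, beside medians of -0.02 and 0 over all genes tested. Both comparisons share the Batf3-/- arrays. Within the sort gates the difference from WT Irf8VENUS+ was positive for the 5 members that passed the filter: Gbp3 had 1.17 in the CD24 pair and 0.46 in the CD24 and XCR1 arrays, Gbp5 1.14 and 1.21, Gbp8 1.50 and 1.61, and Gbp9 0.74 and 0.71, each in that order of gates. Among the members under the filter level, Gbp6 had -0.01 and -0.17, and Gbp7 0.23 and -0.11. Genes of dendritic cell maturation (Ccr7, Fscn1, Ccl22, Ccl17, Cd40, Socs2, Relb) were also higher without Batf3. Their summed intensity was 2300 to 3490 in Batf3-/- Irf8VENUS+, 723 to 1400 in WT Irf8VENUS+ and 1630 to 2210 in WT Irf8VENUS- arrays. Of these 7 genes, 1 was called higher against WT Irf8VENUS+ (Fscn1) and 0 against WT Irf8VENUS- by limma. The sums were higher in WT Irf8VENUS- than in WT Irf8VENUS+ arrays without overlap. Gbp2b, Gbp5 and Gbp8 overlapped between those groups. Gbp9 was higher on every WT Irf8VENUS- array than on any WT Irf8VENUS+ array, as were 10.3% of all genes. Gbp3 was lower in WT Irf8VENUS- without overlap, as were 14.6% of all genes, with a fitted difference of 0.27 ± 0.34 (WT Irf8VENUS+ minus WT Irf8VENUS-). The summed cDC2 markers were 1030 to 1200 in Batf3-/- Irf8VENUS+ arrays, against 549 to 768 in WT Irf8VENUS+ and 593 to 655 in WT Irf8VENUS- arrays, with Clec10a, Mgl2 and Clec4a2 under the filter level. Langerhans cell markers (Cd207, Epcam, Cldn1) summed to 935 to 1520, against 161 to 347 and 309 to 346 in the same order, with Epcam under the filter level. Cldn1 was called higher against WT Irf8VENUS+ (2.73 ± 0.39, limma adjusted p = 0.0258) and WT Irf8VENUS- (3.25 ± 0.46, limma adjusted p = 0.0277). Cd207 was called lower against WT Irf8VENUS- (-2.46 ± 0.21, limma adjusted p = 0.00374). Their part in the Gbp differences was not tested.

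**Figure D2:**
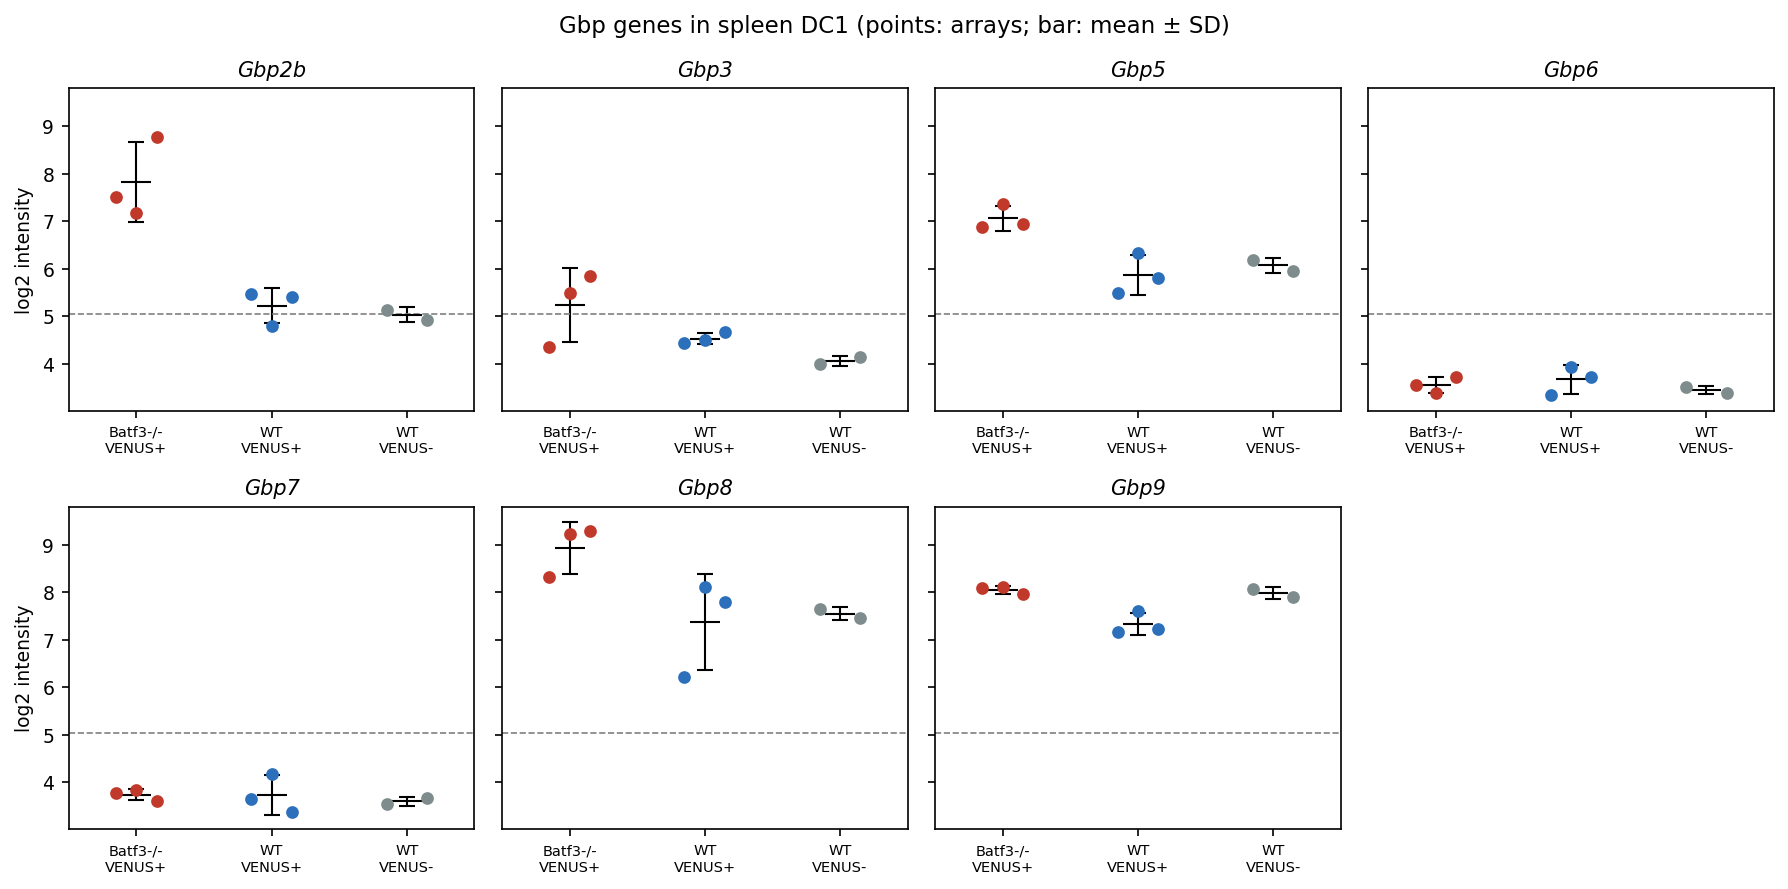
Log2 intensity of 7 Gbp genes on each spleen array (points), with the mean and SD of each group (bars) and the filter level of 5.04 (dashed). Gbp2b, Gbp5 and Gbp8 lie higher on all Batf3-/- arrays than on any WT array, Gbp9 overlaps the Irf8VENUS- WT arrays, and Gbp6 and Gbp7 stay under the dashed line.

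The reporter comparison asked whether WT DC1 with and without the Irf8VENUS signal differ in these genes. None of the 3 members tested passed limma's test across all genes, where 0.0233% of all genes did. Gbp9 was lower on every WT Irf8VENUS+ array than on either WT Irf8VENUS- array, as were 10.3% of all genes, by -0.60 ± 0.20 (adjusted p = 0.536, unadjusted p = 0.0153), and was the 1 member with an unadjusted p under 0.05. Gbp5 differed by -0.15 ± 0.28 (limma, adjusted p = 0.928) and Gbp8 by -0.38 ± 0.53 (limma, adjusted p = 0.894), both with overlapping groups. Without WT Irf8VENUS+ replicate 1 these differences turned to 0.15 and 0.31. Gbp2b and Gbp3, which share arrays with the comparisons that chose them, differed by -0.09 ± 0.32 and 0.27 ± 0.34. In plain group means Gbp2b was 0.19 higher in WT Irf8VENUS+, the sign turning once the sort gate was not a term.

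In resident lymph node DC1, 5 of the 6 measured members were higher on every Batf3-/- array than on any WT array. The share of all 11931 genes tested with that pattern was 8.61%, and 0.847% were called higher. Gbp8 measured 8.12, 7.92 and 7.39 in resident Batf3-/- arrays, against 6.05, 6.12 and 6.38 in resident WT arrays, a difference of 1.62 ± 0.22 or 3.08-fold. Gbp5 measured 7.14, 7.30 and 6.79 in resident Batf3-/- arrays, against 5.89, 5.54 and 6.08 in resident WT arrays, a difference of 1.24 ± 0.22 or 2.36-fold. For these genes of separate chromosomes the difference of means was over 3 times the SD within either group.

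Gbp3 measured 5.37, 5.22 and 5.27 in resident Batf3-/- arrays, against 4.92, 4.23 and 4.42 in resident WT arrays (0.76 ± 0.17). Gbp7, which in mouse has been tied to the assembly of the phagocyte oxidase, measured 5.49, 4.89 and 5.10 in resident Batf3-/- arrays, against 4.62, 4.23 and 4.68 in resident WT arrays (0.65 ± 0.22). Gbp9 measured 7.74, 7.66 and 7.52 in resident Batf3-/- arrays, against 6.88, 6.88 and 7.40 in resident WT arrays (0.58 ± 0.22). In Gbp3, Gbp7 and Gbp9 the groups stood apart without overlap, although Gbp9 came within 0.12 in the third pair of arrays. Gbp2b was the exception: it measured 4.57, 4.65 and 4.30 in resident Batf3-/- arrays, against 4.37, 4.24 and 4.09 in resident WT arrays, overlapping groups that all lie under the filter level (0.27 ± 0.13).

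Of the 5 members fitted in both tables, Gbp2b thus had the largest difference from WT Irf8VENUS+ in spleen and the smallest in resident cells, although the 2 tables use different array types and the tissues were not tested against each other. Arrays of the same number share a code in their titles, and within these codes all 18 of 18 differences (6 members, 3 codes) were positive. This comparison chose the family, members are not replicates, and the share over all genes was not counted, so nothing is read from this count. Gbp7 passed the filter through 5 Batf3-/- arrays alone and Gbp2b through the 3 migratory Batf3-/- arrays alone. As in spleen, the maturation genes were higher without Batf3: their summed intensity was 1940 to 4150 in resident Batf3-/- arrays, against 950 to 1400 in resident WT arrays, and Ccl17, Ccr7 and Ccl22 were called higher. T cell markers summed to 518 to 953 in resident Batf3-/- arrays, against 438 to 502 in resident WT arrays, with 0 of 7 called by limma and 0 at an unadjusted p under 0.05, while natural killer markers summed to 110 to 142 in resident Batf3-/- arrays, against 108 to 117 in resident WT arrays. The cDC2 markers summed to 1650 to 2200 in resident Batf3-/- arrays, against 764 to 2210 in resident WT arrays. Of the 7 cDC2 genes tested, 2 were called higher, Clec10a (2.42 ± 0.28, limma adjusted p = 4e-04) and Mgl2 (1.38 ± 0.20, limma adjusted p = 0.00219), with a list median of 1.38. Cldn1 was called higher too (1.35 ± 0.19, limma adjusted p = 0.00231), the only 1 of 3 Langerhans cell list genes that passed the filter, with Cd207 and Epcam under it. Of 4 stromal and endothelial list genes tested, Pecam1 alone was called (2.11 ± 0.20, limma adjusted p = 0.000148), with a list median of 0.05. Their part in the Gbp differences was not tested.

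**Figure D3:**
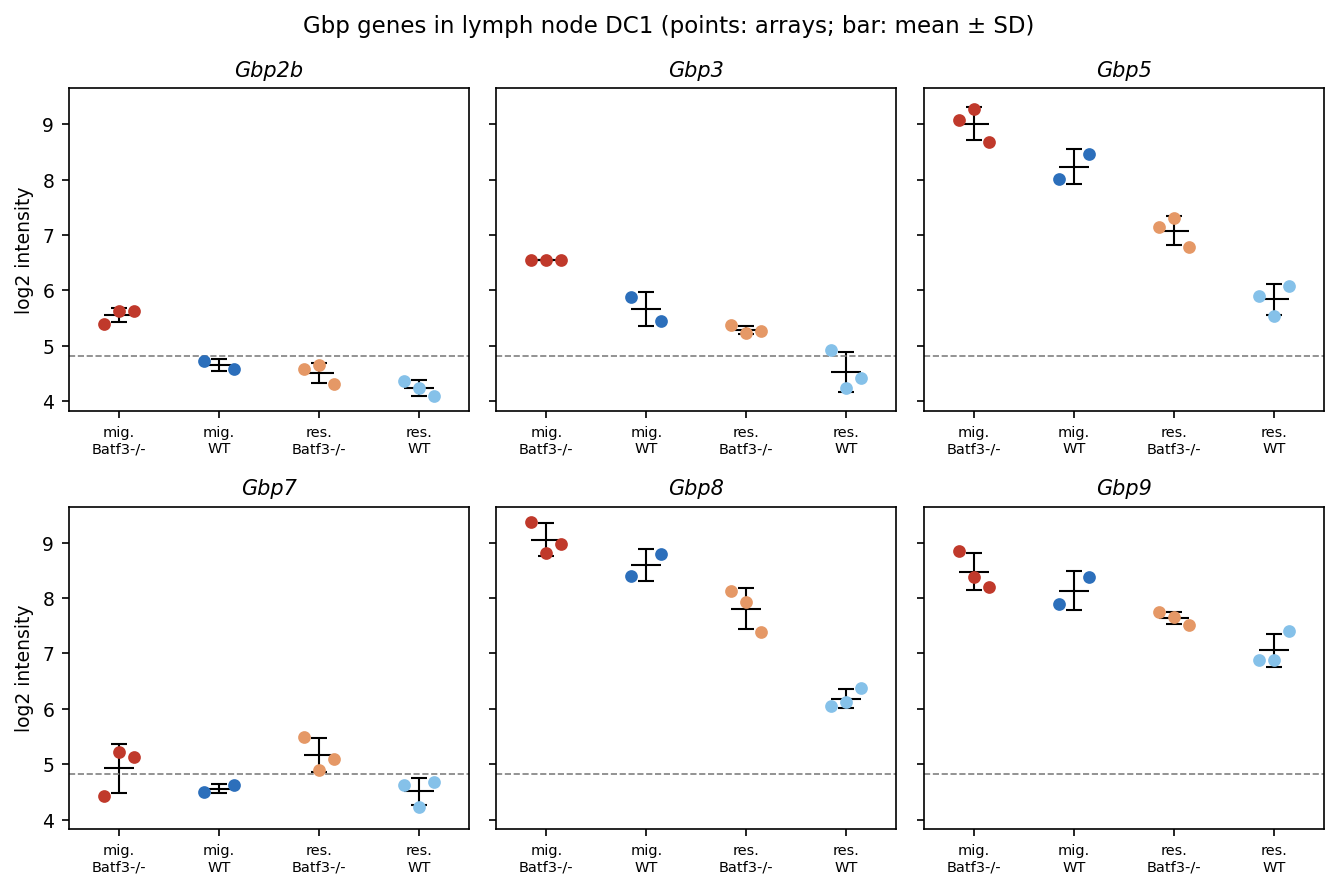
Log2 intensity of 6 Gbp genes on each lymph node array (points), with the mean and SD of each group (bars) and the filter level of 4.82 (dashed). Gbp3, Gbp5, Gbp8 and Gbp9 step down over migratory Batf3-/-, migratory WT, resident Batf3-/- and resident WT, Gbp2b stands apart in migratory Batf3-/- alone, and Gbp7 overlaps between neighbouring groups.

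Migratory DC1 are separate arrays from those that chose the members, and here all 6 could be tested. The fit still took its estimate of the spread from all lymph node arrays, the resident ones included. Gbp2b and Gbp3 rose without Batf3, so 2 of 6 members were called, both higher, beside 7.13% of all genes called higher (9.41% in either direction). Gbp2b measured 5.40, 5.63 and 5.63 in migratory Batf3-/- arrays, against 4.73 and 4.57 in migratory WT arrays, a difference of 0.90 ± 0.15 (limma, adjusted p = 0.00833). Gbp3 measured 6.54 on all 3 migratory Batf3-/- arrays, against 5.88 and 5.45 in migratory WT arrays, a difference of 0.87 ± 0.19 (limma, adjusted p = 0.0211). Neither gene's groups overlapped, and the folds were 1.87 and 1.83. Because Gbp2b reached the filter level on migratory Batf3-/- arrays alone, it could enter the test only by being high there; with no filter its adjusted p from limma was 0.0051.

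The other members were higher on average without passing the test. Gbp5 measured 9.07, 9.28 and 8.68 in migratory Batf3-/- arrays, against 8.01 and 8.46 in migratory WT arrays (0.78 ± 0.25, limma adjusted p = 0.0643), with no overlap. Gbp8 measured 9.38, 8.81 and 8.97 in migratory Batf3-/- arrays, against 8.39 and 8.80 in migratory WT arrays (0.45 ± 0.25, limma adjusted p = 0.243), the groups separated by 0.01. Gbp9 measured 8.85, 8.38 and 8.20 in migratory Batf3-/- arrays, against 7.89 and 8.38 in migratory WT arrays (0.34 ± 0.24, limma adjusted p = 0.367), and Gbp7 measured 4.42, 5.22 and 5.13 in migratory Batf3-/- arrays, against 4.50 and 4.62 in migratory WT arrays (0.36 ± 0.24, limma adjusted p = 0.34). Both of these overlapped. Non-overlapping higher values were seen in 4 of 6 members and in 24.2% of all genes, and the median difference was 0.62 over the 6 members and 0.10 over all genes tested. Between arrays that share a title code, 10 of 12 differences (6 members, 2 codes) were positive, with Gbp2b at 0.67 and 1.06 and Gbp3 at 0.66 and 1.09. Members are not replicates, the share over all genes was not counted, and nothing is read from that count.

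These calls rest on few arrays. Gbp3 lost its call without migratory WT replicate 1 (1.09, adjusted p = 0.0539), migratory WT replicate 2 (0.66, adjusted p = 0.0825), migratory Batf3-/- replicate 1 (0.87, adjusted p = 0.0649) or migratory Batf3-/- replicate 2 (0.87, adjusted p = 0.0655), all by limma, while Gbp2b kept its call in each case and Gbp5 gained one without migratory Batf3-/- replicate 3 (0.94, adjusted p = 0.0126). The spread of values within an array also moved with genotype: its SD was 2.07 to 2.16 in migratory Batf3-/- arrays, against 1.96 and 2.03 in migratory WT arrays, and with it as a covariate neither call remained (Gbp2b 0.90 ± 0.26, adjusted p = 0.17, and Gbp3 1.14 ± 0.33, adjusted p = 0.171, limma). Fitted on the migratory arrays alone, Gbp2b had an adjusted p of 0.1 and Gbp3 of 0.115 by limma. Over all genes that fit called 2 higher and 5 lower, from 851 and 272 in the fit over all lymph node arrays. Maturation genes summed to 12000 to 19500 in migratory Batf3-/- arrays, against 8350 to 10400 in migratory WT arrays, with Relb called higher among 7 tested. B cell markers summed to 164 to 344 in migratory Batf3-/- arrays, against 379 to 454 in migratory WT arrays, with Ms4a1 called lower (-1.30 ± 0.26, limma adjusted p = 0.0151). The cDC2 markers summed to 3850 to 5040 in migratory Batf3-/- arrays, against 2590 to 2870 in migratory WT arrays, with 0 of 7 called by limma and 1 at an unadjusted p under 0.05. Macrophage and monocyte markers summed to 400 to 439 in migratory Batf3-/- arrays, against 355 to 358 in migratory WT arrays, with C1qa (0.92 ± 0.20, limma adjusted p = 0.0192) and C1qb (0.61 ± 0.17, limma adjusted p = 0.0411) called higher. Cldn1 was again called higher (1.30 ± 0.22, limma adjusted p = 0.00833). Of 5 plasmacytoid dendritic cell markers tested, Ly6d was called lower (-1.70 ± 0.40, limma adjusted p = 0.0252), but 3 had positive differences and the list median was 0.05. These markers summed to 1250 to 1380 in migratory Batf3-/- arrays, against 1100 to 1270 in migratory WT arrays. The part of these in the Gbp differences was not tested.

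Gbp5, Gbp8 and Gbp9 were higher in migratory than in resident cells of both genotypes, in comparisons that share the resident arrays with the one that chose the family. The comparisons set separately gated cells side by side and do not follow cells as they migrate. In WT cells Gbp5 averaged 8.23 ± 0.32 in migratory WT, against 5.84 ± 0.28 in resident WT (SD, n = 2 and n = 3), a 5.26-fold difference (2.40 ± 0.25, limma adjusted p = 1.28e-05). Gbp8 averaged 8.60 ± 0.29 in migratory WT, against 6.18 ± 0.17 in resident WT, or 5.33-fold (2.41 ± 0.25, limma adjusted p = 1.37e-05). Gbp9 averaged 8.13 ± 0.35 in migratory WT, against 7.06 ± 0.30 in resident WT, or 2.11-fold (1.07 ± 0.24, limma adjusted p = 0.00321). Gbp7 did not pass, at 4.56 ± 0.08 in migratory WT, against 4.51 ± 0.25 in resident WT (0.05 ± 0.24, limma adjusted p = 0.885). Hence 3 of the 4 members tested were called higher, beside 16.0% of all genes called higher and 33.2% called lower. Gbp3 and Gbp2b, given without a test since the resident arrays chose them, were 1.15 ± 0.19 and 0.42 ± 0.15 higher in migratory WT cells.

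Batf3-/- cells had the same 3 members called. Gbp5 averaged 9.01 ± 0.30 in migratory Batf3-/-, against 7.08 ± 0.26 in resident Batf3-/- cells (SD, n = 3 each), a difference of 1.93 ± 0.22 (limma, adjusted p = 2.46e-05). Gbp8 averaged 9.05 ± 0.29 in migratory Batf3-/-, against 7.81 ± 0.38 in resident Batf3-/- (1.24 ± 0.22, limma adjusted p = 0.000826). Gbp9 averaged 8.47 ± 0.34 in migratory Batf3-/-, against 7.64 ± 0.11 in resident Batf3-/- (0.83 ± 0.22, limma adjusted p = 0.00906). Gbp7 differed by -0.24 ± 0.22 (limma, adjusted p = 0.428), and the share of all genes called higher was 14.1%. Gbp2b and Gbp3 were 1.05 ± 0.13 and 1.25 ± 0.17 higher in migratory Batf3-/- cells, without a test. The maturation genes were called higher in migratory cells of both genotypes in 7 of 7 cases, and 9 of 10 DC1 genes were called lower in migratory WT than in resident WT cells. T cell markers summed to 1140 to 1650 in migratory WT arrays, against 438 to 502 in resident WT arrays, and B cell markers to 379 to 454 in migratory WT arrays, against 115 to 165 in resident WT arrays. Whether any of these accounts for the Gbp values was not tested.

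Put in order of level, Gbp3, Gbp5 and Gbp8 ran from migratory Batf3-/- through migratory WT and resident Batf3-/- to resident WT, with no overlap between neighbours. Gbp9 had the same order, its migratory groups overlapping. Gbp2b was separate only in migratory Batf3-/-, and Gbp7 was highest in resident Batf3-/- with all neighbours overlapping.

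**Figure D4:**
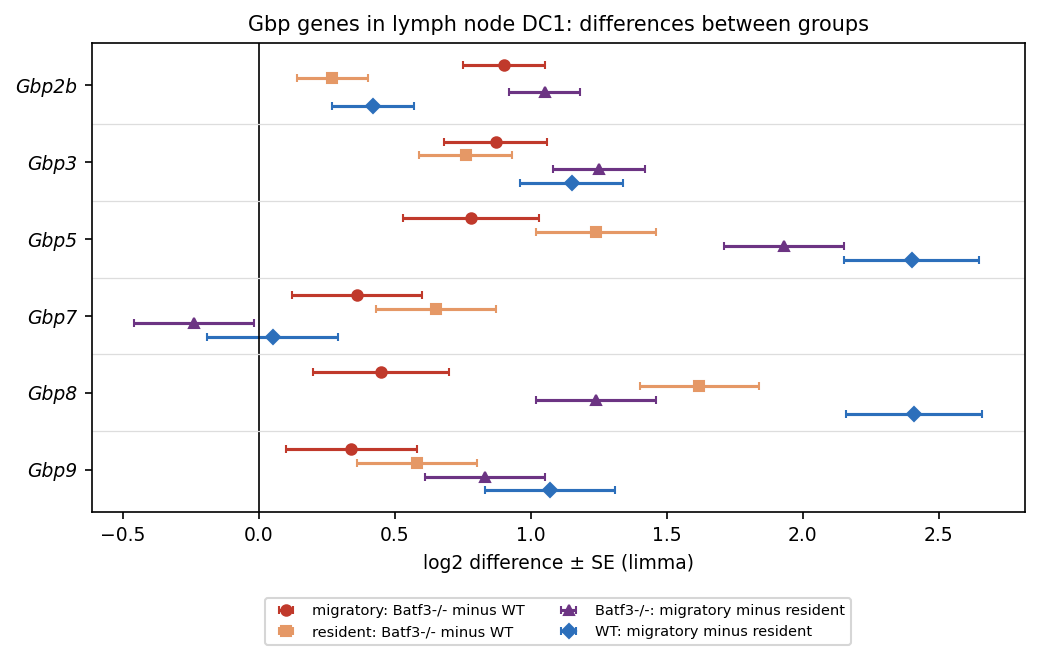
Log2 differences (points) with SE from limma (bars) for 6 Gbp genes in lymph node DC1, for Batf3-/- minus WT in migratory and resident cells and for migratory minus resident in each genotype. Gbp5 and Gbp8 lie beyond 1 in both comparisons of migratory with resident cells, Gbp2b has its larger genotype difference in migratory cells (0.90 against 0.27) and Gbp8 in resident cells (0.45 in migratory against 1.62 in resident).

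Whether the Batf3 difference itself differed between migratory and resident cells is asked by an interaction, the migratory difference minus the resident one. It contains the resident difference that chose the family, and the members' values are therefore given without a test. Gbp8 had the largest in size, with a Batf3 difference of 0.45 in migratory and 1.62 in resident cells (interaction -1.17 ± 0.33, and -1.38 to -0.97 with single arrays left out). The interaction was -0.46 ± 0.33 for Gbp5, -0.29 ± 0.33 for Gbp7 and -0.24 ± 0.33 for Gbp9. For Gbp2b it was 0.63 ± 0.20 and for Gbp3 0.11 ± 0.26, so 2 of the 6 members had a positive value. The median was -0.26 over the members, beside 0.12 over all genes tested.

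Gbp4, a further family gene of the chromosome 5 cluster that was not among the members, differed from them in the sign of its migratory genotype difference. In the other lymph node comparisons Gbp4 had the same signs as Gbp8. It measured 8.92, 8.65 and 8.16 in migratory Batf3-/-, 9.17 and 9.30 in migratory WT, 7.14, 7.09 and 6.76 in resident Batf3-/- and 5.87, 5.87 and 6.20 in resident WT arrays. It was lower in migratory Batf3-/- than in migratory WT cells, without overlap as in 12.4% of all genes, though not called (-0.66 ± 0.23, limma adjusted p = 0.0828). It was called higher in resident Batf3-/- than in resident WT cells (1.02 ± 0.21, limma adjusted p = 0.0251), beside 0.847% of all genes. Gbp4 belongs to the family that this resident comparison chose, and the interaction contains it. Both calls are therefore a description, and nothing is read from them. The interaction was called (-1.68 ± 0.31, limma adjusted p = 0.0305), as for 1.24% of all genes in either direction, and migratory WT exceeded resident WT cells by 3.26 ± 0.23 (limma, adjusted p = 9.48e-07). Leaving out single arrays kept the signs, but the interaction lost its call in 8 of 20 alternatives (adjusted p up to 0.1) and the resident difference in 6 of 16 (up to 0.139). The lost calls of the interaction came without resident WT replicates 1, 2 or 3 (adjusted p 0.0668, 0.1 and 0.0673), resident Batf3-/- replicates 1 or 2 (0.0705 and 0.0654), migratory WT replicate 1 (0.0771) or migratory Batf3-/- replicate 2 (0.0638) by limma, and with each array centred on its median (0.0547). The resident call was lost without resident WT replicates 1, 2 or 3 (adjusted p 0.0995, 0.139 and 0.0562), without resident Batf3-/- replicates 1 or 2 (0.117 and 0.11) and with median centring (0.0539), all by limma. In spleen Gbp4 measured 5.01, 6.28 and 6.62 in Batf3-/- Irf8VENUS+ arrays, 6.01, 6.31 and 6.50 in WT Irf8VENUS+ arrays and 6.89 and 6.96 in WT Irf8VENUS- arrays, so the genotypes overlapped. Gbp10 passed the filter in spleen and was not called there, and Gbp11 stayed under the filter level in both tables.

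Other interferon-inducible GTPases guard vacuoles or block viruses. Of the 7 of 11 tested in spleen, 0 were called between Batf3-/- and WT Irf8VENUS+ cells, with 6 positive and a median of 0.43 beside -0.02 over all genes, and 0 had an unadjusted p under 0.05. Against WT Irf8VENUS- cells 0 of 7 were called as well, with 6 positive and a median of 0.65 beside 0 over all genes. There 5 had an unadjusted p under 0.05 by limma. In lymph node 0 of 4 were called between genotypes in migratory and 0 of 4 in resident cells by limma, with 2 of 4 at an unadjusted p under 0.05 in each. Between migratory and resident Batf3-/- cells they split. Irgm1, a regulator of the vacuole-targeting GTPases, measured 4.55, 4.72 and 4.98 in migratory Batf3-/-, against 6.08, 6.20 and 6.73 in resident Batf3-/- arrays, and fell (-1.59 ± 0.19, limma adjusted p = 3.14e-05). Iigp1, an effector GTPase of the same family, fell as well (-1.68 ± 0.32, limma adjusted p = 0.00126), whereas Mx1, an antiviral GTPase, rose (1.27 ± 0.22, limma adjusted p = 0.000628). In WT cells Irgm1 differed by -0.28 ± 0.21 (limma, adjusted p = 0.277). The interaction for Irgm1 was called (-1.30 ± 0.28, limma adjusted p = 0.0468), but lost its call in 14 of 20 alternatives. It was lost on leaving out any array but migratory Batf3-/- replicate 3 (adjusted p 0.0616 to 0.125), with quantile normalization (0.0566), median centring (0.0573), no variance trend (0.0512) or the array SD as a covariate (0.366), all by limma.

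**Figure D5:**
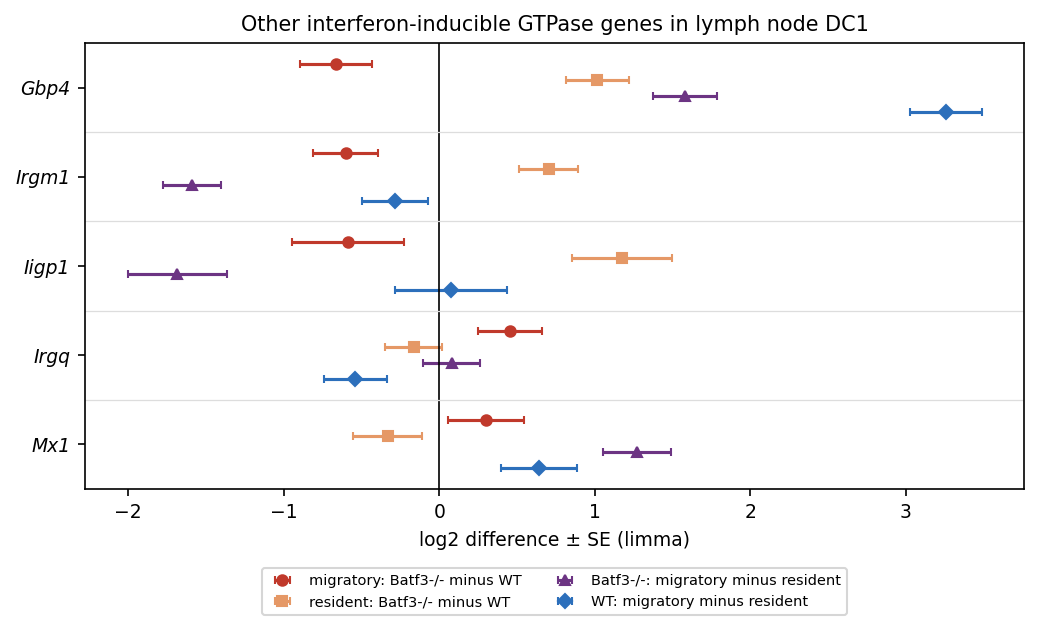
Log2 differences (points) with SE from limma (bars) in lymph node DC1 for Gbp4 and 4 other interferon-inducible GTPase genes, in the same 4 comparisons as for the members. Irgm1 and Iigp1 lie at -1.59 and -1.68 between migratory and resident Batf3-/- cells, where Gbp4 lies at 1.58 and Mx1 at 1.27.

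Upstream of the family, the list of interferon receptors and signalling genes had 17 measured members. In migratory cells 4 of them rose without Batf3 and none fell: Irf8 (1.24 ± 0.21, limma adjusted p = 0.00833), the kinase genes Tyk2 (1.49 ± 0.32, limma adjusted p = 0.0179) and Jak2 (0.82 ± 0.23, limma adjusted p = 0.0412), and Irf9 of the type I interferon complex (0.70 ± 0.19, limma adjusted p = 0.0382). The list median was 0.42, beside 0.10 over all genes. Over all genes 2.28% were called lower there. Fitted on the migratory arrays alone, limma called 2 of 11931 genes higher and 5 lower. The migratory calls between genotypes, in this list and those that follow, thus depend on the joint fit with the resident arrays. In resident cells 0 of 17 were called by limma (2 at an unadjusted p under 0.05), beside 1.84% of all genes, and in spleen against WT Irf8VENUS+ likewise 0 of 17 (4 at an unadjusted p under 0.05), beside 0.738%. Between migratory and resident WT cells 2 rose and 8 fell, beside 16.0% of all genes called higher and 33.2% called lower; among the list genes that fell were the class II transactivator Ciita (-3.25 ± 0.24, limma adjusted p = 1.06e-06), the interferon-gamma receptor gene Ifngr1 (-2.77 ± 0.31, limma adjusted p = 2.31e-05) and Irf8 (-1.88 ± 0.21, limma adjusted p = 2.1e-05), while Irf1, a target and mediator of interferon-gamma, rose (1.32 ± 0.21, limma adjusted p = 0.000377). Batf3-/- cells had 3 rise and 6 fall, where 22.6% of all genes were called lower, Ifngr1 (-3.23 ± 0.28, limma adjusted p = 2.36e-06) and Irf1 (1.44 ± 0.19, limma adjusted p = 8.48e-05) in the same directions.

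Of 8 interferon-gamma targets outside the GTPases tested in migratory cells, the peptide transporter gene Tap1 rose without Batf3 (0.87 ± 0.20, limma adjusted p = 0.0237) and the chemokine gene Cxcl9 fell (-1.42 ± 0.20, limma adjusted p = 0.00419); in resident cells 0 of 8 were called by limma (0 at an unadjusted p under 0.05), and in spleen against WT Irf8VENUS+ likewise 0 of 8 (1 at an unadjusted p under 0.05). Between migratory and resident WT cells Cxcl9 also fell (-1.29 ± 0.20, limma adjusted p = 0.000262), beside the checkpoint ligand gene Cd274, which rose (2.08 ± 0.40, limma adjusted p = 0.00106), with 2 of 8 higher and 3 lower in all, beside the same shares of all genes (16.0% and 33.2%).

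Downstream, the caspase-11 and AIM2 inflammasome list had 9 genes tested. Casp4, which encodes caspase-11 in mouse, fell in migratory Batf3-/- relative to migratory WT cells (-0.92 ± 0.22, limma adjusted p = 0.0276) while Gsdmd, the pore-forming gasdermin, rose (1.22 ± 0.34, limma adjusted p = 0.0414). In resident cells 0 of 9 were called by limma, with 7 positive and 4 at an unadjusted p under 0.05. There Casp4 measured 6.19, 6.53 and 6.49 in Batf3-/- arrays, against 6.13, 5.72 and 5.51 in WT arrays. Its interaction was called (-1.53 ± 0.30, limma adjusted p = 0.0386), as for 1.24% of all genes. In spleen against WT Irf8VENUS+ 0 of 9 were called by limma, with 8 positive and 3 at an unadjusted p under 0.05. Casp4 was higher in migratory than in resident cells in WT (2.64 ± 0.22, limma adjusted p = 3.25e-06) and in Batf3-/- (1.11 ± 0.20, limma adjusted p = 0.000847), and Nlrp3 and Il1b were lower in both. Of 5 genes of CaaX prenylation, Zmpste24 (-1.33 ± 0.19 in WT, limma adjusted p = 0.000168) and Fnta (-0.89 ± 0.19 in WT, limma adjusted p = 0.00199) were lower in migratory than in resident cells, also in Batf3-/-. Between genotypes 0 of 5 were called by limma in either state, with 1 at an unadjusted p under 0.05 in migratory and 0 in resident cells. The ubiquitin-like conjugation list, whose ATG proteins load GBPs onto vacuoles, had 12 tested, of which Atg16l1 alone was called between genotypes in migratory cells (0.99 ± 0.23, limma adjusted p = 0.0237). Between migratory and resident WT cells 3 were called higher and 3 lower.

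The genes nearest to Gbp2b and Gbp3 were sought by the root mean square difference of log2 values centred on each gene's mean. Over the 8 spleen arrays Mcemp1 was closest to Gbp2b (0.34, beside an SD of 1.38 for Gbp2b itself), followed by Dhrs9 and Fabp5 (0.54 each), Cdh17 (0.55) and Parvb (0.58). For Gbp3 they were Ptpro (0.25), Acot9 (0.26), 1700006J14Rik (0.27), Trappc2 and S100a4 (0.28 each), against an SD of 0.61. Over the 11 lymph node arrays Aqp9, Dip2b and Syne4 (0.18 each), Mycbp2 and Sat1 (0.19 each) were nearest to Gbp2b (SD 0.53), and Paqr3 (0.19), Tmod2 (0.21), E030011O05Rik (0.23), Wnt11 and Malt1 (0.24 each) to Gbp3 (SD 0.78). The other members were not candidates, and no gene was near the same member in both tables. The members' sequences are alike, so probes of one could bind transcripts of another, and how far that shapes these values was not tested.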

How the data were processed

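RNA of sorted DC1 was measured on 8 spleen and 11 lymph node arrays of different Affymetrix types. The authors processed the arrays with RMA, per the submitters' processing notes (version not given in the sources used here), and deposited linear intensity values for spleen, of which log2 was taken here, and log2 values for lymph node, per the deposited tables' values. Probe set names came from the platform annotation: 23521 of 41345 spleen and 21789 of 35556 lymph node probe sets had 1 symbol, 1814 and 1621 had several, and 16010 and 12146 had none. Each gene kept its brightest probe set with 1 symbol. Genes needed 2 arrays at or above the table's median (5.04 and 4.82 on the log2 scale). Differences were fitted over all arrays of a table with limma 3.58.1 in R 4.3.3 (empirical Bayes with trend; the sort gate as a term in spleen), adjusted by Benjamini-Hochberg over all genes tested, threshold 0.05, and the fit was tested on simulated data. Precision is limited by how few arrays each group has.

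The members and gene lists were chosen with earlier results of these data known. All members, Batf3, up to 3 called genes per list and comparison with the smallest p (Jak2, Irf1 and other genes beyond these were chosen after their values were seen) and the 5 nearest genes to Gbp2b and Gbp3 are named. The interaction was planned as a test of 4 members and is given as a description, since it contains the resident difference. Alternatives covered filters, normalization, array weights, array SD, blocks, the gate and single arrays left out. Same-numbered lymph node arrays share a code in their titles. Between migratory and resident Batf3-/- arrays their deviations from the group means correlated (0.416, 0.210 and 0.479). Unlike numbers 1 and 2 correlated there too (0.218 and 0.184), so whether the numbers pair the samples was not settled. Values between genotypes were mixed, at -0.031, 0.214 and -0.020 in resident cells and -0.157 and 0.245 in migratory cells.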

Additional observations from a re-analysis of the deposited data

Results flagged for a closer look

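By limma's test of the interaction (migratory minus resident), the Batf3 difference was called as differing between migratory and resident cells in a pair of GTPase genes outside the members. Both come from lists chosen with earlier results known, and Gbp4 belongs to the family that the resident difference chose. The interaction was -1.68 ± 0.31 for Gbp4 (limma, adjusted p = 0.0305) and -1.30 ± 0.28 for Irgm1 (limma, adjusted p = 0.0468). Both calls depend on single arrays and on processing settings, being lost in 8 of 20 alternatives for Gbp4 and 14 of 20 for Irgm1.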

How the results depend on the processing

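The 3 called members between migratory and resident cells stayed 3 in every alternative run, in WT (Gbp9 adjusted p up to 0.04) and in Batf3-/- cells (up to 0.0423, limma). In migratory Batf3-/- against WT cells the 2 calls became 0 when only these groups were fitted and 0 with the array SD as a covariate, and ranged from 1 to 3 with single arrays left out, where a lone migratory WT array was assumed to vary like the other groups; Gbp2b lost its call in 2 and Gbp3 in 6 of 15 alternatives. The replicate block (title code) moved Gbp5 past the threshold in migratory cells (0.84, limma adjusted p = 0.039), as did array weights (0.92, limma adjusted p = 0.0377), and changed no other member's call. Between migratory and resident Batf3-/- cells the block left 3 called. Over the members that passed the filter (5 in spleen, 6 in lymph node), the median fitted difference was 1.19 for spleen Batf3-/- minus WT Irf8VENUS+ (0.94 to 1.42 with single arrays left out), 1.04 minus WT Irf8VENUS- (0.85 to 1.47, the last without Batf3-/- replicate 1), 0.71 in resident cells (0.56 to 0.84) and -0.26 for the interaction (-0.42 to -0.15).

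Signs turned only in members that were not called or not tested: WT Irf8VENUS+ minus Irf8VENUS- for Gbp2b (0.10 with only the groups compared or only CD24 and XCR1 arrays, 0.19 with no gate term, and up to 0.10 with single arrays left out), and for Gbp5 and Gbp8 with array weights (0.11 and 0.21) and without WT Irf8VENUS+ replicate 1 (0.15 and 0.31, with -0.44 and -1.04 as the other ends of their ranges over left-out arrays); migratory Batf3-/- minus WT for Gbp8 and Gbp9 with array SD (-0.16 and -0.27); migratory minus resident for Gbp7 in WT with quantile normalization (-0.16), median centring (-0.10), array SD (-0.42) and leaving out resident WT replicate 2 (-0.09) or migratory WT replicate 2 (-0.01; highest 0.13), and in Batf3-/- without migratory replicate 1 (0.01; lowest -0.39); and the interaction for Gbp7 with array SD (0.03), Gbp9 without migratory WT replicate 2 (0.01; lowest -0.49) and Gbp3 without resident WT replicate 1 (-0.09) or migratory WT replicate 2 (-0.11). The cause was not tested. Over the pathway lists, array SD moved the called genes to 1 from 9 (migratory), 15 from 31 (WT migratory against resident), 4 from 1 (resident), 2 from 5 (interaction), 2 from 1 (spleen against Irf8VENUS-, where no filter gave 0) and 1 from 0 (spleen reporter). With array SD, all genes called went to 6 higher and 31 lower from 851 and 272 in migratory cells, and to 734 and 529 from 1903 and 3967 between migratory and resident WT cells. The alternatives for Gbp4 and Irgm1 were chosen after seeing the data. Under the stricter filter Gbp3 in spleen and Gbp7 in lymph node gave no value, and fitting only the groups compared was not run for the interaction. Groups of 2 or 3 arrays limit every call.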
